A study of Mus musculus with 12 samples.

Results

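The genes described here are 7 of a group often called oncofetal, because they are active in the embryo and in many tumours and are low or silent in most adult cells. They are the 3 Igf2bp genes (Igf2bp1, Igf2bp2 and Igf2bp3), the Lin28 genes (Lin28a and Lin28b) and the Hmga genes (Hmga1 and Hmga2), taken by symbol from the 55573 genes of the count table. Igf2bp3 was selected on its measured counts, which are higher in the libraries without Bmi1, so its difference between genotypes is a description here and was not tested. The other members were taken as its relatives and as genes of the same fetal program, with results of these data already known. Of the 7 genes, 5 passed the filter on low counts and were tested among 14197 genes, and Lin28a and Lin28b did not pass.

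Murine bone marrow-derived macrophages (MΦs) of 2 genotypes were grown alone or with myeloma cells, which gave 4 groups of 3 RNA-seq libraries each. The mice were of the C57BL/6 strain, were injected with 5 doses of poly I:C (15 mg/kg) at 6 to 8 weeks of age, and gave their marrow 4 weeks later. Mice with the BMI1fl/fl alleles and no Cre were the wild-type (wt) controls, so the wt cells also carry the floxed alleles and saw poly I:C, and BMI1fl/fl Mx1-Cre mice gave the BMI1-knockout (BMI1-KO) cells. Mx1-Cre is driven by an interferon-responsive promoter that is active across blood cells and in other tissues, and the deletion was induced in the mice, before the macrophage culture. Adherent marrow cells were kept for 7 days in 5 ng/mL M-CSF to give wt MΦs and BMI1-KO MΦs. Co-culture with 5TGM1, a mouse myeloma line, for 48 h more gave wt MM-MΦs and BMI1-KO MM-MΦs, and cells sorted as CD11b+ F4/80+ were sequenced. Neither the number of mice behind the replicates nor a further 48 h of culture for the MΦs grown alone is stated, so p-values speak only of how far these libraries spread.

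BMI1 is a subunit of Polycomb repressive complex 1, which keeps developmental genes silent. IGF2BP proteins bind messenger RNAs, among them transcripts marked with N6-methyladenosine, and mostly protect them from decay. LIN28 proteins bind the precursors of the let-7 microRNAs and block their maturation, and let-7 in turn represses many fetal transcripts through short matches in their 3′ untranslated regions (3′ UTRs). HMGA proteins bend DNA at AT-rich stretches. In blood formation, Lin28b, Igf2bp3 and Hmga2 are known as genes of the fetal stem cell state that is lost after birth as let-7 takes over.

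Library totals were 9662279 to 11142768 counts. Bmi1 had 251 to 364 counts in the 6 wt libraries and all 6 BMI1-KO libraries list it at 0. In the BMI1-KO libraries the totals behind the deposited FPKM values were larger than the summed counts, by 512 to 734, and in the wt libraries by at most 0. Some counts of the former are thus not in the table, and whether the zeros of Bmi1 were measured is not known. Cdkn2a, the best known target of BMI1, had 0 to 7 counts in the wt libraries and 108 to 230 in the BMI1-KO libraries. All 9 macrophage markers examined had counts in every group and summed to 13080 to 20110 CPM (counts scaled to the TMM-adjusted library size). Of other cell types, the plasma and myeloma cell list summed to 12.1 to 162 CPM in libraries of MΦs and 109 to 414 CPM in those of MM-MΦs, and Cd3e, Cd3g, Cd8a and Ncr1 were at 0 in all groups. In MΦs this list was mostly Sdc1 (75.9 CPM in wt and 14.4 in BMI1-KO), which was at 75.5 and 16.1 CPM in MM-MΦs. In MM-MΦs Igkc (84.1 and 68.5 CPM in wt and BMI1-KO, against 6.63 and 1.38 in MΦs) and Ighg2b held most of the rest. The B cell list summed to 7.96 to 11.2 CPM in wt and 11.3 to 20.2 CPM in BMI1-KO libraries, nearly all of it Cd79b, the T and NK cell list to at most 1.34 CPM, the erythroid and megakaryocyte list to 176 to 295 CPM, and the stromal and endothelial list to 33.4 to 108 CPM. The 4 libraries numbered 3 stood apart, with the highest summed level of 20 proliferation genes in their group (1364 to 3803 CPM, against 377.5 to 1168 in the others). Values without these 4 libraries are therefore given beside the main results that they move.

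What the members have in common is a match to the let-7 microRNAs. The counts played no part in it. The members were, however, taken as genes of a fetal program that let-7 is known to repress, so matches were likely from the start and carry no test. The mature let-7 microRNAs share their seed, bases 2 to 8, which pairs with the target. The RefSeq table used here holds 11 let-7 loci of the mouse (GRCm38.p6), counting miR-98, with 9 different mature sequences, and all 11 carry the same seed. Of these, 4 are shown 5′ to 3′ with the seed in capitals, because they differ outside the seed and not within it.
let-7a: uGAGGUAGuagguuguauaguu
let-7d: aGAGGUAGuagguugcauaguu
let-7g: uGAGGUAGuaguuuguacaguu
miR-98: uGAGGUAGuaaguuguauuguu

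The DNA letters that pair with this seed are CTACCTC, and the longest annotated 3′ UTR of each member (GENCODE M21, GRCm38) was searched for them on the transcript's strand. All 7 members held at least 1 match, against 9.03% of 21001 genes with a 3′ UTR searched in the same way. Igf2bp1, Lin28b and Hmga2 held 4 matches each, Lin28a held 2, and Igf2bp2, Igf2bp3 and Hmga1 held 1 each. The UTRs of the members are long, and among 3′ UTRs of similar length a match was found in 8.46% (for Hmga1) to 35.8% (for Igf2bp1). At least 4 matches were held by 0.412% of the UTRs similar in length to that of Igf2bp1, 0.494% for Lin28b and 0.18% for Hmga2. These sets of 243, 607 and 1114 UTRs include that of the member itself, which adds to each share. For Igf2bp1 the member makes up the whole share. For each member 1 match is shown with the 14 bases before it, since these 22 bases are where a let-7 microRNA would pair. The capitals are the bases that pair with the seed, with the A that follows them where there is one.
Igf2bp1 (chr11:95961778-95961799, minus strand): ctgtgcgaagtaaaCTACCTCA
Igf2bp2 (chr16:22059473-22059494, minus strand): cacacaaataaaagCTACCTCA
Igf2bp3 (chr6:49086787-49086808, minus strand): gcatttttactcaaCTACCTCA
Lin28a (chr4:134005189-134005210, minus strand): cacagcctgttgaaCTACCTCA
Lin28b (chr10:45381022-45381043, minus strand): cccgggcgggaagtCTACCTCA
Hmga1 (chr17:27563278-27563299, plus strand): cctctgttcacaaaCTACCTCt
Hmga2 (chr10:120364224-120364245, minus strand): ccgacattcaatttCTACCTCA
A match is a description of the sequence and does not show that let-7 acts there, and the levels of mature let-7 were not analysed here.

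In wt MΦs the members lay at very different levels. Levels between genes are compared in RPKM, the count scaled to exon length and to the library total. Hmga1 was the highest, with 38.6, 36.9 and 44.5 RPKM in the 3 libraries, above 93.0% of the genes tested. Igf2bp2 followed at 6.59 ± 2.02 RPKM, above 57.7% of the genes tested, and Igf2bp3 at 1.40 ± 0.776 RPKM, above 22.5%. Hmga2 was low, at 0.516 ± 0.214 RPKM, and Igf2bp1, Lin28a and Lin28b had no counts. Of neighbours in this order, the ranges of Igf2bp3 and Hmga2 overlapped, with 0.603 RPKM in the lowest Igf2bp3 library and 0.741 RPKM in the highest Hmga2 library. The order was the same in wt MM-MΦs, from Hmga1 at 37.3 ± 4.06 RPKM (SD, n = 3) and Igf2bp2 at 8.37 ± 2.31 to Igf2bp3 at 1.40 ± 0.723 and Hmga2 at 0.249 ± 0.0884, and no ranges overlapped.

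The order changed in BMI1-KO MΦs, where Igf2bp3 stood above Igf2bp2. Igf2bp3 was at 15.1 ± 1.71 RPKM (SD, n = 3), above 79.0% of the genes tested, and Hmga1 at 51.2 ± 15.4 RPKM was still the highest. Igf2bp2 (4.39 to 6.77 RPKM) and Hmga2 (1.70 to 10.2 RPKM) did not differ beyond their spread. Igf2bp1 was at 0.468 ± 0.345 RPKM, above 8.57% of the genes tested. The order was the same in BMI1-KO MM-MΦs, with Hmga1 at 52.4 ± 27.4, Igf2bp3 at 14.1 ± 1.24, Igf2bp2 at 7.63 ± 2.69, Hmga2 at 3.51 ± 2.90 and Igf2bp1 at 0.352 ± 0.285 RPKM, and there too the ranges of Igf2bp2 and Hmga2 overlapped.

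**Figure D1:**
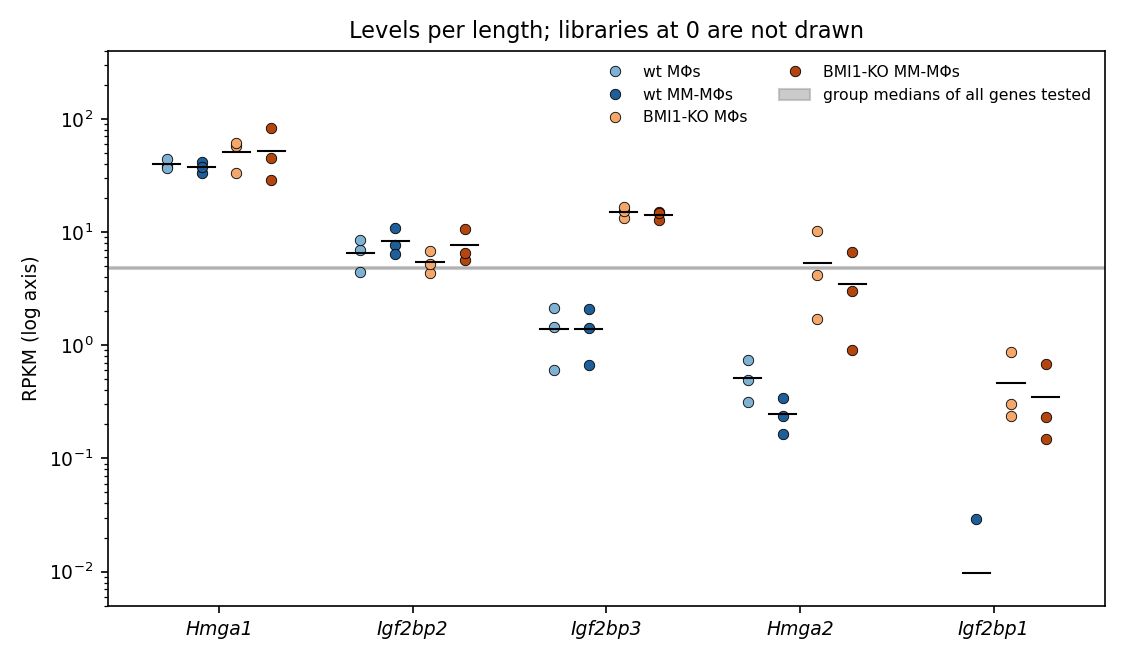
RPKM on a log axis for the 5 members that passed the filter, with 1 point per library, a black bar for the mean of the 3 libraries of a group, and a grey band for the group medians of all genes tested (4.70 to 4.89 RPKM). Igf2bp3 lies under the band in wt cells (means of 1.40 RPKM) and above it in BMI1-KO cells (15.1 and 14.1 RPKM). Hmga1 stays the highest in all groups, and the group means of Igf2bp2 (5.47 to 8.37 RPKM) stay above the band.

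Igf2bp3, an RNA-binding protein of fetal tissues and tumours (chromosome 6 of GRCm38, 49085223 to 49214957, minus strand), was counted 182, 117 and 53 times in wt MΦs, against 1044, 1328 and 1442 times in BMI1-KO MΦs. In MM-MΦs the wt libraries held 186, 114 and 58 counts of it, and the BMI1-KO libraries 1013, 1205 and 1339. The 6 BMI1-KO libraries lay close together, and all of them lay far above all wt libraries. The log2 fold change was 3.39 in MΦs and 3.30 in MM-MΦs (SE 0.49 in both), the 20th and the 24th highest of the genes tested. These values chose the gene and carry no test. Without the 4 libraries numbered 3, a setting chosen after seeing the data, they were 2.96 and 2.92. Relative to their mean, the wt libraries spread more than the BMI1-KO libraries, at 11.7 ± 6.99 CPM (SD, n = 3) against 122 ± 11.7 CPM in MΦs, and the wt libraries numbered 3 were the lowest in both cultures.

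Igf2bp1, the family member best known as the zipcode-binding protein of β-actin messenger RNA (chromosome 11, 95957163 to 96005940, minus strand), was at 0 in all 3 wt MΦ libraries and had 22, 31 and 89 counts in the BMI1-KO MΦ libraries. In wt MM-MΦs it had 0, 0 and 3 counts, and in BMI1-KO MM-MΦs 14, 22 and 73. Each BMI1-KO library lay above each wt library, and the BMI1-KO libraries numbered 3 held most of the counts. In MΦs the summed 142 counts against 0 made it at least 47.7-fold higher, taking 3 counts over the group as the floor for wt, and at least 17.3-fold higher without the libraries numbered 3 (53 counts against 0). In MM-MΦs 109 counts against 3 gave a ratio of 37.0 (95% interval 12.3 to 182, for counting error only). All 3 wt counts came from wt MM-MΦ replicate 3, and without the libraries numbered 3 the level was at least 12.2-fold higher (36 counts against 0). The edgeR fit gave 5.01 (SE 1.09) on the log2 scale in MM-MΦs with an adjusted p of 0.287, and an adjusted p of 0.194 in MΦs, where the fitted fold change has no measured size, nor has it in MM-MΦs once wt MM-MΦ replicate 3 is left out. So even in BMI1-KO cells Igf2bp1 stayed under 1 RPKM in every library.

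Igf2bp2, the family member that is also found in adult tissues (chromosome 16, 22059009 to 22163299, minus strand), did not pass the test between genotypes. It had 528, 619 and 355 counts in wt MΦs and 314, 411 and 533 in BMI1-KO MΦs. In MM-MΦs it had 618, 801 and 509 counts in wt and 413, 474 and 883 in BMI1-KO. The genotypes overlapped in both cultures. The log2 fold change was −0.29 (95% interval −0.99 to 0.41, edgeR adjusted p = 0.986) in MΦs and −0.15 (−0.85 to 0.55, edgeR adjusted p = 0.999) in MM-MΦs, which leaves room for a change of less than 2-fold in either direction. Without the libraries numbered 3 it was −0.69 and −0.65 (edgeR unadjusted p = 0.00498 and 0.00685, edgeR adjusted p = 0.455 and 0.446). The remaining BMI1-KO libraries lay below the remaining wt libraries in both cultures. No share of all genes is given for that setting.

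Hmga2, an architectural chromatin protein of embryonic cells (chromosome 10, 120361275 to 120476469, minus strand), was low in every wt library and spread widely in BMI1-KO cells. It had 52, 33 and 23 counts in wt MΦs and 111, 296 and 733 in BMI1-KO MΦs. In MM-MΦs it had 25, 16 and 12 counts in wt and 60, 200 and 500 in BMI1-KO. All BMI1-KO libraries lay above all wt libraries of the same culture, and the libraries numbered 3 were the highest in BMI1-KO and the lowest in wt. The log2 fold change was 3.33 (SE 0.77, edgeR adjusted p = 0.312) in MΦs and 3.77 (SE 0.81, edgeR adjusted p = 0.213) in MM-MΦs, and 2.20 and 2.67 without the libraries numbered 3.

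Hmga1, the related gene that most dividing cells express (chromosome 17, 27556497 to 27563674, plus strand), had 850, 776 and 1020 counts in wt MΦs and 689, 1303 and 1398 in BMI1-KO MΦs. In MM-MΦs it had 762, 870 and 850 counts in wt and 604, 954 and 1955 in BMI1-KO. The BMI1-KO libraries lay on both sides of the wt libraries in each culture. The log2 fold change was 0.35 (95% interval −0.33 to 1.04, edgeR adjusted p = 0.976) in MΦs and 0.48 (−0.21 to 1.16, edgeR adjusted p = 0.999) in MM-MΦs, and −0.04 in MM-MΦs without the libraries numbered 3. Hmga1b, a near-identical copy on chromosome 11, had 143 to 450 counts a library, and the sources used here do not say how reads that fit both were counted, so the split between them is uncertain. Its log2 fold changes were 0.16 in MΦs and 0.33 in MM-MΦs.

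Lin28a had 0 counts in all 12 libraries, which allows up to 0.0242 CPM over their 124083300 counts, and Lin28b had 1 count, in BMI1-KO MM-MΦ replicate 3. Lin28a, a blocker of let-7 like Lin28b, was thus not detectable at this depth, and a single count of Lin28b allows no comparison between groups.

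**Figure D2:**
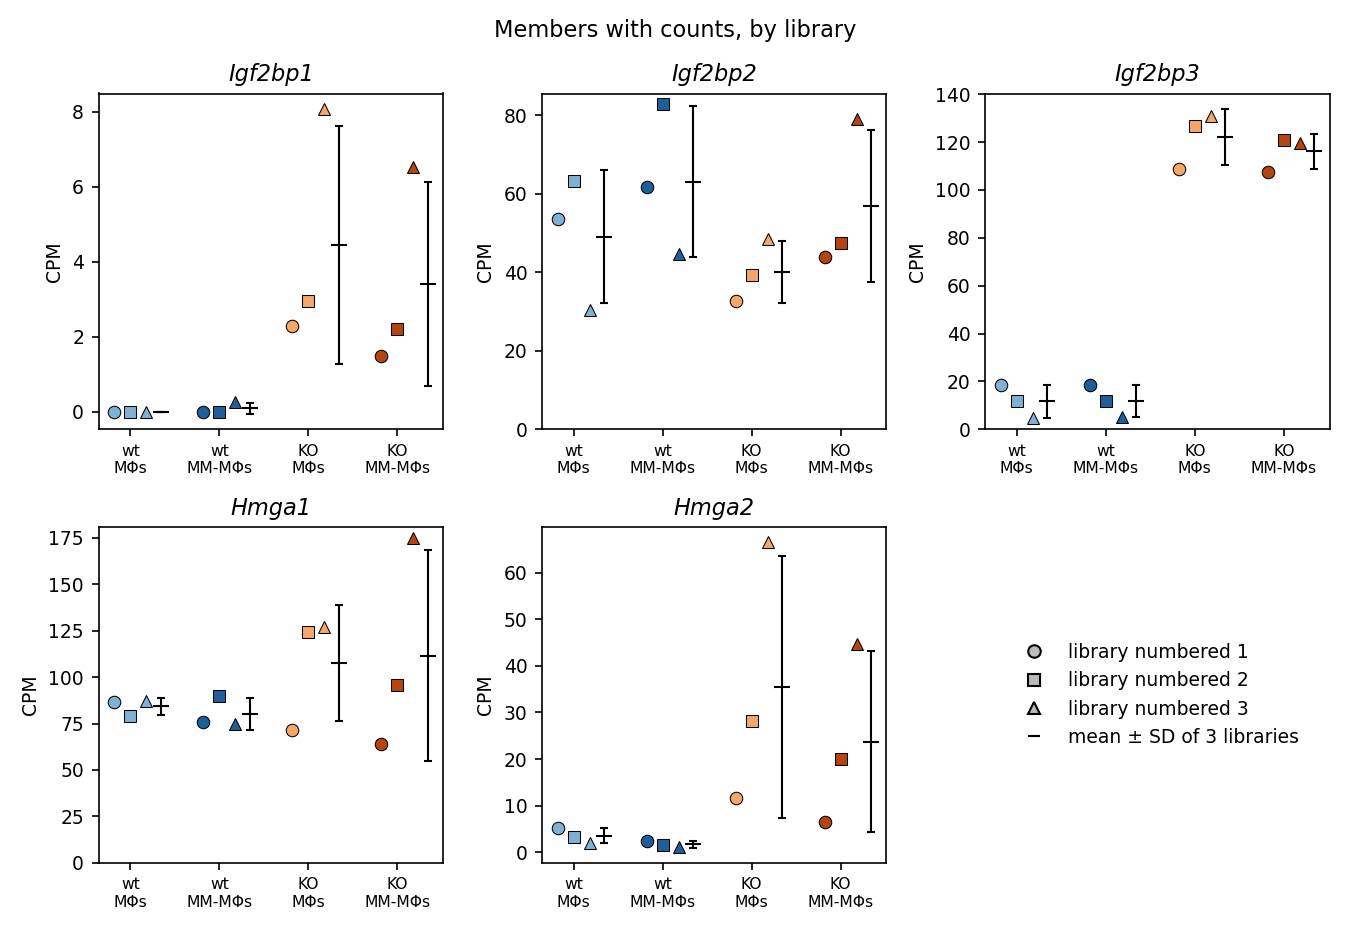
CPM on TMM-scaled library sizes for the 5 members with counts in more than 1 library, in the 4 groups (blue for wt, orange for BMI1-KO). The marker is a circle, square or triangle by library number (1, 2 or 3), and each black line gives a group mean ± SD over 3 libraries. Igf2bp3 forms a tight cluster in BMI1-KO cells (122 ± 11.7 CPM in MΦs and 116 ± 7.30 CPM in MM-MΦs), while Hmga2 and Igf2bp1 spread upward to the libraries numbered 3 (66.5 and 8.08 CPM in MΦs).

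Of the 4 members tested between genotypes, Igf2bp3 left aside, 0 passed an edgeR adjusted p of 0.05 in MM-MΦs, where 0.0634% of all genes tested passed, and 0 passed in MΦs, where 0.0493% did. Igf2bp1 and Hmga2 had an unadjusted p under 0.05 in both cultures (0.00121 and 0.000631 in MM-MΦs, 0.000253 and 0.00114 in MΦs), which 5.02% and 5.77% of all genes tested had. Igf2bp1, at 0 to 3 counts in wt libraries, passed the filter only through the group where it is high, so it had to differ and its p-values and calls support nothing. The tools parted on both genes. DESeq2 passed both in MM-MΦs (adjusted p = 0.00422 for Igf2bp1 and 4.1e-05 for Hmga2), where it passed 0.424% of genes, and in MΦs (3.2e-05 and 0.000589), where it passed 0.406%. limma-voom passed neither, and passed 0.0634% of genes in MM-MΦs and 0.0563% in MΦs. Over all 5 members that passed the filter, the groups did not overlap and BMI1-KO was higher for 3 (Igf2bp1, Igf2bp3 and Hmga2) in MM-MΦs, against 4.4% of all genes tested, and for the same 3 in MΦs, against 5.17%. Among all genes tested 1.36% did so in both cultures. Since Igf2bp3 was picked for this difference and the others with results known, nothing is read from these counts. MΦ and MM-MΦ libraries of the same genotype and number deviated together, so the 2 cultures are not independent views of the genotypes either. In bulk RNA, more cells of a type and more RNA per cell cannot be told apart.

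**Figure D3:**
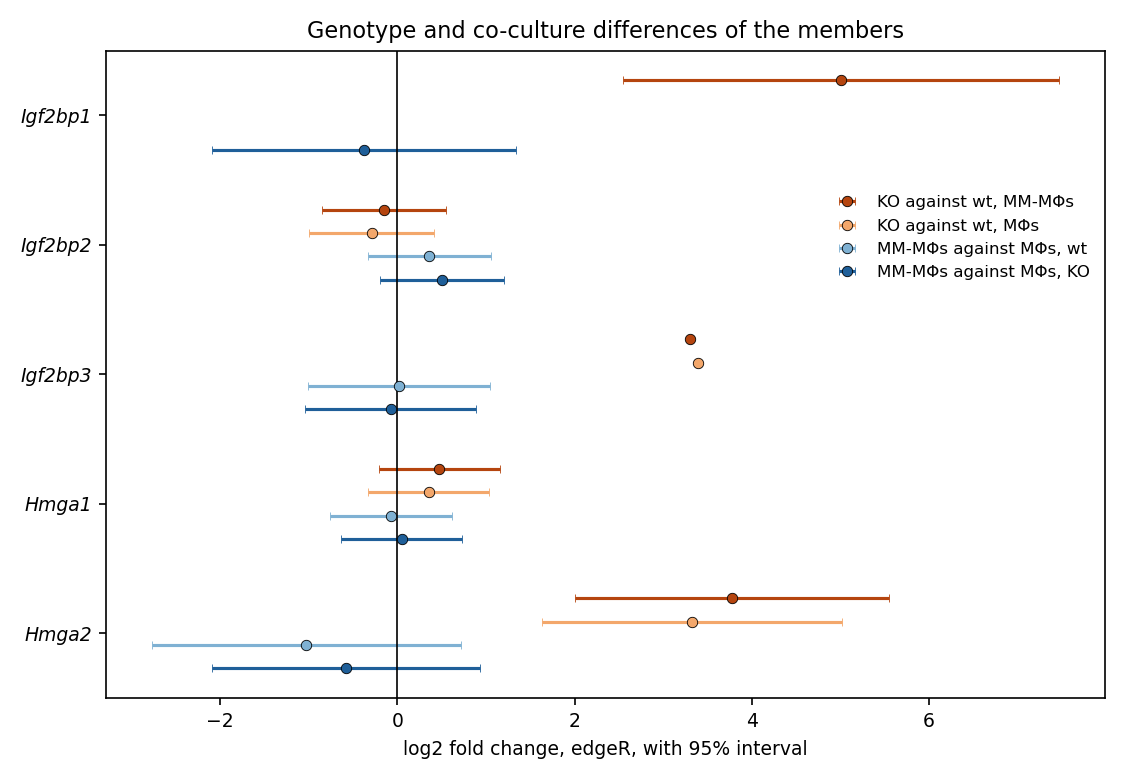
Log2 fold changes from edgeR (x axis) with 95% intervals for the genotype difference in each culture and the co-culture difference in each genotype, for the 5 members that passed the filter. Igf2bp1 is drawn for 2 differences only, since wt MΦs had no counts. The genotype differences of Igf2bp3 (3.39 in MΦs and 3.30 in MM-MΦs), which chose the gene, are drawn as points without an interval. The genotype intervals are not adjusted for the number of genes, and for Hmga2 that in MΦs spans 1.64 to 5.02, while those of Igf2bp2 and Hmga1 include 0.

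Markers of other cells moved along with these genes in part. Summed over 7 stem and progenitor cell genes, the level was 11.0 to 22.2 CPM in wt libraries and 30.0 to 95.1 CPM in BMI1-KO libraries, highest in the BMI1-KO libraries numbered 3 (80.2 and 95.1 CPM). Nearly all of this was Cd34 (48.1 and 59.5 CPM in BMI1-KO MΦs and MM-MΦs, 11.6 and 16.0 CPM in wt), while the defining genes Kit and Flt3 stayed at or under 0.298 CPM in all groups. Neutrophil genes summed to 6.81 to 20.9 CPM in wt and 8.71 to 159 CPM in BMI1-KO libraries, with the highest in those numbered 2, not 3. The part of such cells in the levels of Hmga2 and Igf2bp1 was not tested. The 20 proliferation genes all had log2 fold changes below 0 between BMI1-KO and wt (medians of −1.13 in MΦs and −0.90 in MM-MΦs, 0 past the threshold in edgeR, none with an unadjusted p below 0.05 in either culture, and 0 past it in DESeq2 and limma-voom). The wt libraries numbered 3 weighed most in this, and without those numbered 3 the medians were −0.26 and −0.22, with 17 and 18 of the 20 below 0.

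Co-culture with 5TGM1 cells gave no difference in Igf2bp3 past the test in either genotype. Its log2 fold change between MM-MΦs and MΦs was 0.02 (95% interval −1.0 to 1.05, edgeR adjusted p = 1) in wt and −0.07 (−1.04 to 0.89, edgeR adjusted p = 1) in BMI1-KO. Taken within each replicate number, the log2 ratio of MM-MΦs to MΦs (on CPM + 0.1) was 0.01, −0.02 and 0.17 in wt cells, against −0.01, −0.07 and −0.13 in BMI1-KO cells.

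Hmga2 was lower with co-culture in all 6 pairs of libraries. Within numbers 1, 2 and 3 its log2 ratio was −1.05, −0.98 and −0.84 in wt cells, and −0.85, −0.49 and −0.57 in BMI1-KO cells. The replicate block takes each genotype and number as a pair, which was read from these same counts and not from the labels. With this block Hmga2 fell in both, with log2 fold changes of −1.01 in wt (edgeR adjusted p = 0.0467) and −0.62 in BMI1-KO (edgeR adjusted p = 0.0365). Without the block the values were −1.02 (SE 0.80, edgeR adjusted p = 1) and −0.58 (SE 0.69, edgeR adjusted p = 1), and the latter turned to 0.26 without BMI1-KO MΦ replicate 3, which leaves a pair incomplete. The fitted genotype differences of Hmga2 (log2 fold change 3.33 in MΦs and 3.77 in MM-MΦs) were larger than this fall. At number 1 the genotypes were less far apart, with 11.6 CPM in BMI1-KO MΦs and 5.28 CPM in wt MΦs. BMI1-KO MM-MΦs (23.7 ± 19.4 CPM, SD, n = 3) stayed above wt MΦs (3.54 ± 1.67 CPM) in every library. The margin was narrow, with 6.38 CPM in the lowest library of the former and 5.28 CPM in the highest of the latter.

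Igf2bp2 was higher with co-culture in all 6 pairs. Its log2 ratio was 0.20, 0.39 and 0.56 in wt cells, and 0.42, 0.28 and 0.71 in BMI1-KO cells. With the replicate block within genotype it rose in BMI1-KO, with a log2 fold change of 0.48 (edgeR adjusted p = 0.0248), and in wt it did not pass (edgeR adjusted p = 0.16). Without the block it was 0.36 (SE 0.32, edgeR adjusted p = 1) in wt and 0.50 (SE 0.32, edgeR adjusted p = 1) in BMI1-KO. Hmga1 went both ways, with log2 ratios of −0.18, 0.18 and −0.22 in wt cells, and −0.16, −0.38 and 0.46 in BMI1-KO cells. Igf2bp1 in BMI1-KO cells was at −0.59, −0.41 and −0.30, on 14 to 89 counts a library.

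Without the block, 0 of 5 members passed in either genotype, where 0.0916% of all genes tested passed in wt and 0.19% in BMI1-KO, 0 members had an unadjusted p under 0.05 (1.99% and 2.94% of all genes), and 0 passed by DESeq2 (0.352% and 0.45%) or limma-voom (0.0141% and 0.176%). With the block, 1 of 5 passed in wt and 2 of 5 in BMI1-KO, where 1.1% and 2.17% of all genes passed. The levels of Igkc and Ighg2b, genes of the myeloma cell list, differed between the cultures in the same libraries (4.39 and 0.828 CPM of Ighg2b in wt and BMI1-KO MΦs, 75.4 and 67.6 in MM-MΦs), and their part in these differences was not tested. The interaction of genotype and co-culture, which asks whether co-culture acts differently without Bmi1, passed for 0 of the 4 members tested (0% of all genes by edgeR, with 0 of the 4 and 0.909% of all genes with an unadjusted p below 0.05, while DESeq2 and limma-voom passed 0). It was 0.45 for Hmga2, 0.14 for Igf2bp2, 0.12 for Hmga1 and, as a description, −0.09 for Igf2bp3. The fitted value of Igf2bp1 has no measured size, since wt MΦs had no counts of it, and its edgeR adjusted p was 1.

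**Figure D4:**
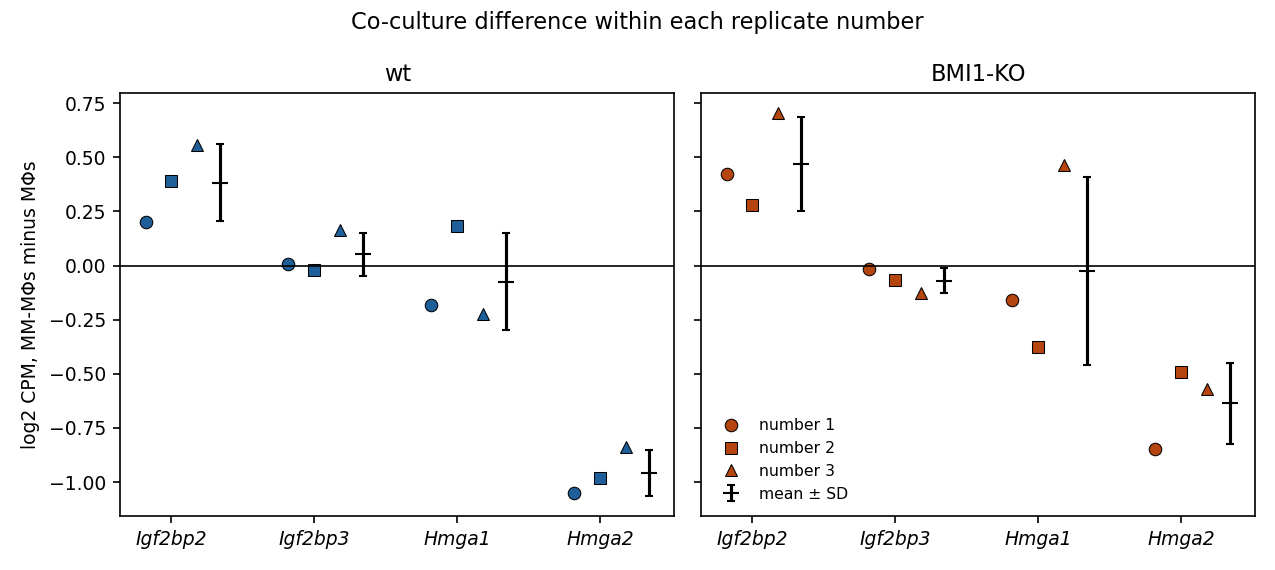
Log2 ratio of CPM in MM-MΦs to that in MΦs of the same genotype and replicate number (y axis) for 4 members, with 1 symbol per number and a black line for the mean ± SD of 3. Hmga2 lies below 0 and Igf2bp2 above 0 at every number in both genotypes, while Igf2bp3 lies within −0.13 to 0.17.

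The promoters of the members differ in CpG content. Polycomb complexes are known to gather at CpG-rich promoters, and the promoter windows of RefSeq (GRCm38.p6, 250 bases before to 50 after each start) were counted for CpG dinucleotides. The table holds windows for 6 of the 7 members. Igf2bp2 had 47 CpGs, more than 98.6% of 32851 promoters, Hmga1 had 40 and 38 at its 2 starts, and Igf2bp3 had 25, more than 81.6%. Hmga2 had 12, Lin28a 10 and Lin28b 8, near the median of 7. The Lin28b window (chr10:45470152-45470451, minus strand) lies inside the gene, whose annotated 5′ end is at 45486395, so its count is for an internal start. The windows of Igf2bp3 and Hmga2 are shown 5′ to 3′ on the strand of the gene, with each CpG in capitals, to let both be compared.
Igf2bp3 (chr6:49214905-49215204, minus strand): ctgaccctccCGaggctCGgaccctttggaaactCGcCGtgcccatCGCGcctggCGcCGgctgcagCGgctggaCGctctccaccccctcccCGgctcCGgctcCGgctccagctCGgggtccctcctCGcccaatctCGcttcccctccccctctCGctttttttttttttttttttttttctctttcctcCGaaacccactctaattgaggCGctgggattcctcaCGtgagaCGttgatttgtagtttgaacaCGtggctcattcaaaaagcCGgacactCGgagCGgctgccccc
Hmga2 (chr10:120476420-120476719, minus strand): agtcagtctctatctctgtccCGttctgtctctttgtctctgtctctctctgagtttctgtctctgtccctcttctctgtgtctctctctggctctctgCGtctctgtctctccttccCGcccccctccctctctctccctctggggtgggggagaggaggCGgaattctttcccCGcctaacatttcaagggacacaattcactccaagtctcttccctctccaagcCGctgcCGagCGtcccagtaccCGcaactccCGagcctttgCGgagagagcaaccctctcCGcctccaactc
The Igf2bp3 window holds the E-box CACGTG, whose central CG is among its CpGs, searched on both strands and found in 7.15% of all promoters, which the Lin28b window holds as well. The Hmga2 window holds the GC box GGGCGG, searched on both strands as well, as do those of Igf2bp2, Lin28a and Hmga1 and 35.7% of all promoters, and none of the 6 members holds TATAAA, which 13.6% do.

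**Figure D5:**
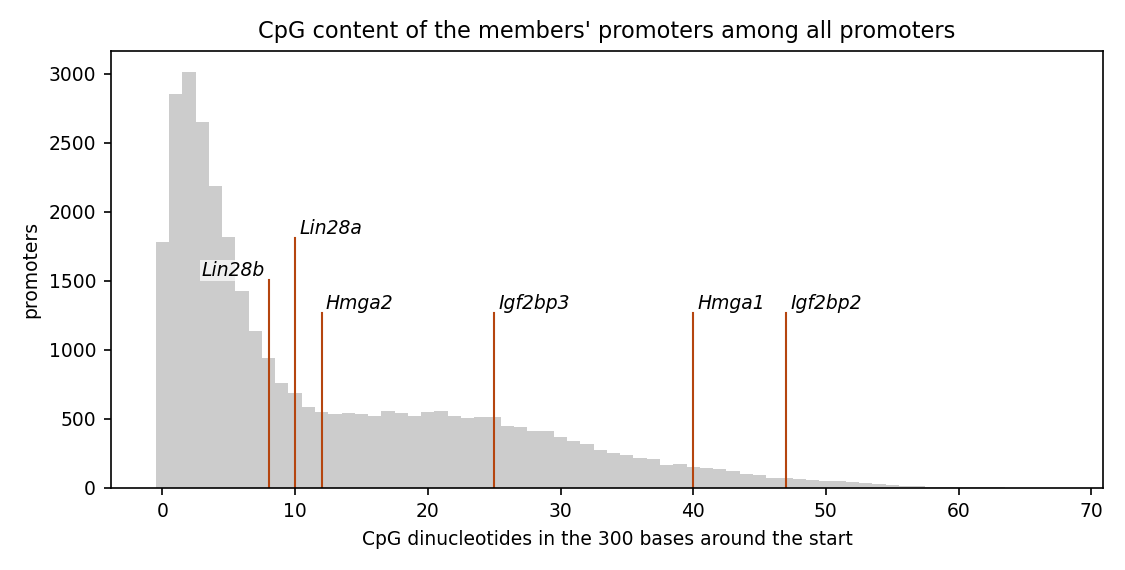
Number of promoters (y axis) by their count of CpG dinucleotides in 300 bases (x axis), with red lines at the counts of 6 members. Lin28b, Lin28a and Hmga2 lie at 8, 10 and 12, near the bulk of promoters, Igf2bp3 at 25, and Hmga1 and Igf2bp2 at 40 and 47 in the upper tail.

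Other genes of these pathways were followed in 10 lists. In edgeR without a replicate block, 0 genes of any list passed in any of the 5 comparisons, and in the co-culture and interaction comparisons 0 had an unadjusted p under 0.05 and 0 passed by DESeq2 or limma-voom. The genes that make or degrade let-7 lay near 0, with a median log2 fold change of −0.03 in MM-MΦs and 0.01 in MΦs over 15 genes tested (all genes, −0.01 in both), none of them with an unadjusted p below 0.05 or past DESeq2 or limma-voom. Dicer1, which cuts the let-7 precursor, had 1287 to 1441 counts in wt and 1373 to 1613 in BMI1-KO MM-MΦs, a log2 difference of 0.12, and Ago2, which carries let-7 to its targets, was at −0.16. Of the let-7 host genes 3 were tested, and Mir99ahg, the host of let-7c and its neighbours, was at 0.73 (SE 0.26, edgeR adjusted p = 0.76) in MM-MΦs, with 325 to 530 counts in wt and 503 to 947 in BMI1-KO. It was the 1 of the 3 with an unadjusted p under 0.05, in both cultures, and DESeq2 and limma-voom passed 0. Without the libraries numbered 3, Mir99ahg was at 0.66 in MM-MΦs and 0.27 in MΦs (edgeR unadjusted p = 0.047 and 0.36).

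Among 23 let-7 target genes tested beside the members, 16 lay above 0 in MM-MΦs and 17 in MΦs, with medians of 0.17 and 0.23. Ccnd2, which encodes the G1 cyclin D2, had 154, 172 and 167 counts in wt MM-MΦs and 470, 1968 and 4558 in BMI1-KO MM-MΦs, the same spread with the highest library numbered 3 as Hmga2. Its log2 fold change was 3.78 in MM-MΦs and 4.02 in MΦs (edgeR adjusted p = 0.213 and 0.214). DESeq2 passed it in both cultures (adjusted p = 0.00199 and 0.000595), as it did 0.424% and 0.406% of all genes, and it passed no other gene of the list, while limma-voom passed none. Without the libraries numbered 3 the log2 fold change was 2.91 and 3.37. Nr6a1, a nuclear receptor of germ cells, was at 0.67 and 0.55 (edgeR adjusted p = 0.496 and 0.651). Of the 23 genes, 2 in MM-MΦs and 3 in MΦs had an unadjusted p under 0.05 (5.02% and 5.77% of all genes tested). Without the libraries numbered 3 these were 5 and 2. No share of all genes is given for that setting, so nothing is read from them. There 17 and 21 of the 23 lay above 0, with medians of 0.15 and 0.21.

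The list of other fetal genes lay mostly under the filter on low counts, with 4 of 18 tested. Of these, Plag1, a fetal zinc finger factor that activates Igf2, had 35, 62 and 40 counts in wt MM-MΦs and 181, 173 and 167 in BMI1-KO MM-MΦs. Its BMI1-KO libraries lay above its wt libraries in both cultures, as for 4.4% of all genes tested in MM-MΦs and 5.17% in MΦs. In BMI1-KO cells, unlike those of Hmga2, its libraries lay close together. The log2 fold change was 1.94 in MM-MΦs and 1.72 in MΦs (edgeR adjusted p = 0.113 and 0.198). DESeq2 passed Plag1 in both (adjusted p = 4.1e-05 and 0.000606), as it did 0.424% and 0.406% of all genes, while limma-voom passed no gene of the list. Cdkn1c, an imprinted cell cycle inhibitor, was at −2.13 in MM-MΦs (edgeR adjusted p = 0.999), with 203, 114 and 15 counts in wt and 50, 22 and 2 in BMI1-KO. The median of the 4 genes was 0.77 in MM-MΦs and −0.23 in MΦs, and 1.22 and 0.017 without the libraries numbered 3. In each culture 1 of the 4 had an edgeR unadjusted p under 0.05 (5.02% of all genes tested in MM-MΦs and 5.77% in MΦs). Without the libraries numbered 3 these were 3 in MM-MΦs and 1 in MΦs, with no share of all genes given.

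Other lists hold the targets and partners of the IGF2BP proteins and the relatives of the members. Over 11 transcripts known to be bound by them, the median was 0.12 in MM-MΦs and 0.04 in MΦs, with Ccng1 at 0.35 and 0.42 and Ccnd1, cyclin D1, at 1.84 and 1.60 on widely spread counts (982, 1171 and 4106 in wt, 1339, 5834 and 15011 in BMI1-KO MM-MΦs, edgeR adjusted p = 0.999). In the insulin-like growth factor axis 8 of 17 genes were tested, with medians of 0.10 and −0.07 (0.0098 and 0.085 over 10 genes without the libraries numbered 3). Igf1, a growth factor that macrophages make, had 11919 to 15629 counts in wt and 15522 to 16824 in BMI1-KO MM-MΦs (0.25 on the log2 scale, edgeR adjusted p = 0.999), and Igf2r was at 0.15. All 19 genes that write, erase or read N6-methyladenosine were tested, with medians of −0.05 and 0.04, and Mettl3, the methyltransferase, was at −0.23 and 0.22. The 8 other high mobility group genes had medians of −0.50 and −0.23 (−0.14 and −0.089 without the libraries numbered 3), with Hmgn5 at −0.94 and Hmgb2 at −0.72 in MM-MΦs. The 4 cold shock domain genes tested, relatives of Lin28, had medians of −0.24 and −0.44, with Ybx3 at −0.30 and Carhsp1 at −0.24 in MM-MΦs. At an unadjusted p under 0.05, these 5 lists held 0 genes in MM-MΦs and, in MΦs, 1 of the bound transcripts and 1 of the cold shock genes, and DESeq2 and limma-voom passed 0. Without the libraries numbered 3 the bound transcripts had medians of 0.25 and 0.14, and the cold shock genes −0.23 and −0.25. There only 3 bound transcripts had an unadjusted p under 0.05 in MM-MΦs, and in MΦs only 1 gene of the N6-methyladenosine list. No share of all genes is given for that setting, so nothing is read from these counts.

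The genes whose pattern was most like that of a member were found by Pearson correlation of log2 CPM over the 12 libraries. These libraries fall into 2 genotypes, and MΦ and MM-MΦ libraries share their numbering, so r is a description of likeness and carries no test. Among the 5 genes most like Igf2bp3 were Cdc42bpa (r = 0.97), a kinase of the cytoskeleton, Lhx8 (0.95), Myo6 (0.94) and Sntb2 (0.94). Lhx8, a homeobox gene of the embryonic forebrain and germ line, was at 0 in all wt libraries and had 12 to 22 counts in each BMI1-KO library. It thus passed the filter only through the BMI1-KO groups, and nothing is read from its r with any member. Cdc42bpa was also among the 5 genes most like Igf2bp1 (0.95) and Hmga2 (0.94), with 68 to 96 counts in wt and 277 to 604 in BMI1-KO libraries.

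The other genes most like Igf2bp1 were Gm33858, Ptchd1, Arap3 and Lhx8 (r of 0.95 to 0.97), and those most like Hmga2 were Dst, Edem1, Ptchd1 and Dgkd (0.93 to 0.96). Ptchd1, which both lists hold, had 27 to 48 counts in wt and 80 to 286 in BMI1-KO libraries, lowest in those numbered 1, as Hmga2 was. Hmga1 and Igf2bp2, whose genotypes overlapped, had other genes at their side. Nfe2l1, Clip2, Plec, Extl3 and Ap1s3 were most like Hmga1 (r of 0.92 to 0.94), and Aldh3b1, Atp6v0a2, Bcar3, Pea15a and Tmem184b most like Igf2bp2 (0.86 to 0.91).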

How the data were processed

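RNA-seq was made from sorted CD11b+ F4/80+ cells of 4 groups with 3 libraries each. The authors deposited raw counts per gene and, for each library, FPKM values with exon sizes. The submitters' processing notes name HISAT2 2.0.1 and HTSeq 0.6.1, with cutadapt 1.9.1 for trimming, bcl2fastq 2.17.1.14, DESeq2 and the genome GRCm38 (mm10). The sources used here do not say whether counting used strand, so reads of a gene and of an antisense partner cannot be told apart. The count table had 0 value columns without a sample. Results rest on the counts, and the deposited FPKM values were used to check RPKM (largest difference for these genes 0.0077). Of 55573 gene identifiers, 55394 were found in GENCODE M21.

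The counts were fitted in edgeR 4.0.16 under R 4.3.3 (TMM, quasi-likelihood test, 1 mean for each group over 12 libraries). filterByExpr (minimum count 10, total 15, large group size 10, proportion 0.7) left 14197 genes, over which p was adjusted by Benjamini and Hochberg with a threshold of 0.05. The common dispersion was 0.102, and totals of 9662279 to 11142768 counts set the floor of 3 counts for a group at 0. The fits were tested on simulated data. Alternatives were DESeq2 1.42.0, limma-voom (limma 3.58.1), other scalings and filters, replicate blocks, the 6 libraries compared, and leaving out libraries.

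Replicate numbers are shared by all groups. For numbers 1, 2 and 3, the deviation of a MΦ library from its group mean correlated over genes with that of the MM-MΦ library at r = 0.55, 0.36 and 0.73 (wt), or 0.64, 0.18 and 0.60 (BMI1-KO), so numbers were read as pairs within a genotype, from the data and not from the labels. The same check across genotypes gave r = 0.48, −0.03 and 0.50 (MΦs), or 0.50, 0.03 and 0.51 (MM-MΦs). Numbers 1 and 3 thus deviated together across genotypes as well, and number 2 did not. What libraries of a number share is not stated in the labels, and genotypes were left unpaired.

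The members, gene lists and marker lists were chosen with earlier results of these data known. Named were all members, Bmi1, Cdkn2a, Hmga1b, the 2 genes of each list with the smallest p between genotypes in MM-MΦs with any that passed the threshold, and the 5 genes most like each member. Of these 5, 1 for Igf2bp3 is not reported here, nor are 2 of the marker genes by name.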

Additional observations from a re-analysis of the deposited data

How the results depend on the processing

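The counts of genes past the threshold (9 in MM-MΦs and 7 in MΦs between genotypes, 13 in wt and 27 in BMI1-KO with co-culture, 0 for the interaction) moved with the model. In that order of the first 4, they were 79, 68, 54 and 84 with DESeq2, 21, 14, 22 and 42 with no filter on low counts, and 4, 2, 6 and 0 with only the 6 libraries compared. With co-culture in wt they were 2 with limma-voom, 6 with library totals alone and 1 without the libraries numbered 3, and in BMI1-KO 13 with library totals alone and 1 without the libraries numbered 3. Leaving out 1 library gave 3 to 11, 2 to 6, 0 to 21 and 4 to 23. Of the members, 2 passed with DESeq2 in each culture and 1 in each with no filter (Hmga2 in MM-MΦs, adjusted p = 0.0412, and Igf2bp1 in MΦs, adjusted p = 0.0272). Without a filter 1 of the 2 members under it, Lin28a, was still left out. The cause of these moves was not tested.

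With the replicate number as a replicate block over all 4 groups, where the numbers were not shown to pair the genotypes, the counts were 181, 206, 63 and 110, and 2 members passed in each culture between genotypes (Igf2bp1, adjusted p = 0.00411 in MM-MΦs and 0.0016 in MΦs, and Hmga2, 0.0268 and 0.0382). Of the list genes, Ccnd2 (adjusted p = 0.00223 and 0.00147), Ccnd1 (0.0136 and 0.0209) and Plag1 (0.00305 and 0.00594) passed there in MM-MΦs and MΦs, and Cdkn1c (0.0196, log2 fold change −2.23) in MM-MΦs. With the replicate block within genotype, the pairing used above, they were 156 in wt and 308 in BMI1-KO with co-culture and 1 for the interaction, with 1 and 2 members, and no other member's call changed.

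Some directions of small differences turned. Without the libraries numbered 3, Hmga1 was at −0.042 between genotypes in MM-MΦs, at 7.924e-05 with co-culture in wt, and at −0.29 with co-culture in BMI1-KO and for the interaction, and Igf2bp3 at −0.0067 with co-culture in wt (−0.0041 with library totals alone). Hmga1 with co-culture in BMI1-KO was −0.024 with limma-voom and −0.015 with the replicate block within genotype. Over fits that leave out 1 library, the ranges that cross 0 were −0.45 to 0.10 for Igf2bp2 between genotypes in MM-MΦs (turned without wt MM-MΦ replicate 2 or BMI1-KO MM-MΦ replicate 1), −0.47 to 0.53 for Igf2bp3 with co-culture in wt (without wt MΦ replicate 3 or wt MM-MΦ replicate 1), and in BMI1-KO −1.25 to 0.39 for Igf2bp1 (without BMI1-KO MΦ replicate 3), −0.42 to 0.33 for Hmga1 (without BMI1-KO MΦ replicate 1 or BMI1-KO MM-MΦ replicate 3) and −1.41 to 0.26 for Hmga2 (without BMI1-KO MΦ replicate 3). For the interaction they were −0.16 to 0.40 for Igf2bp2, −0.60 to 0.40 for Igf2bp3, −0.35 to 0.40 for Hmga1 and −0.38 to 1.29 for Hmga2. A fit that leaves a group with 2 libraries assumes that they vary like the others. Depth limits Igf2bp1 in wt cells and both Lin28 genes, at 0 to 3 counts a library.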
